A study of Mus musculus with 6 samples.

Results

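The endoplasmic reticulum (ER) is the compartment in which hepatocytes fold the plasma proteins they secrete. Its chaperones and disulfide enzymes fold newly imported chains, and ER-associated degradation (ERAD) returns chains that fail to fold to the cytosol for destruction by the proteasome. When unfolded chains accumulate, the membrane sensors IRE1 (gene Ern1), ATF6 and PERK (gene Eif2ak3) start the unfolded protein response, in which the transcription factors XBP1 and ATF6 raise transcription of chaperone and ERAD genes. The set described here was chosen by name, as a list of 36 genes of these functions, and a gene was measured where an array probe set carried its symbol and no other. By that rule 35 of the 36 genes were measured, out of 12393 genes with such a probe set, and they had 77 probe sets. Ero1l is given under its current symbol, Ero1a. Hspa13 was not analysed here.

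The livers were those of male C57BL/6J mice that drank distilled water (control) or drinking source water for 90 d. Each group held 10 mice, of which 9 were used. Livers were homogenized in pools of 3 mice, which gave 3 RNA samples and 3 one-colour Affymetrix 3' expression arrays per group, so every replicate is a pool and single animals were not measured. What the source water contained was not analysed here.

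Values are log2 signals per probe set as the authors deposited them, and a difference is the log2 value in source water minus that in control. Array medians lay between 5.79 and 5.86, and any pair of arrays had a Pearson correlation of 0.985 to 0.994 over the probe sets, a description only, since probe sets are no replicates. All 8 measured hepatocyte markers had means between 12.2 and 14.9, and 0 of them had an unadjusted limma p under 0.05. Over all genes, 4.16% were higher and 2.6% lower at such a p, so 0 of 8 is near these shares. All source water arrays of the marker Cps1 lay below its control arrays (difference -0.19), as in 5.03% of all genes. Signals of different probe sets are not compared with each other, because each probe set has its own scale. In whole liver, fewer cells of a type and less RNA per cell cannot be told apart.

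Before the expression values, the promoters of these genes are shown, because several of them share a sequence element. The ER stress response element (ERSE) is the site at which ATF6 and XBP1 are known to act together with the CCAAT-binding factor NF-Y. It was searched as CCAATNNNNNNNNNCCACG on both strands of the window from 250 bases before to 50 bases after each gene's start (RefSeq, GRCm38.p6). Of the 35 genes, 30 had an entry, and 9 of these 30 (30.0%) held a match, against 37 of 27025 genes in the whole table (0.137%). The list names genes of a response that ATF6 and XBP1 drive, so a high share was likely beforehand and is no test. The 9 were Hspa5, Hsp90b1, Creld2, Dnajc3, Calr, Canx, Pdia6, Syvn1 and Derl3. Derl1, Manf, Sec61a1, Hyou1 and Atf6 were the genes not matched to an entry. The matches are printed below in the gene's own orientation with 6 bases on each side. Capitals mark the element, which reads from its CCACG end where it lies on the other strand.
Hspa5 (chr2:34772019-34772049, + strand): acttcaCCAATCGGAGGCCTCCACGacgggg
Hsp90b1, upstream copy (chr10:86705632-86705662, - strand): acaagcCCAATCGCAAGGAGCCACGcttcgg
Hsp90b1, downstream copy (chr10:86705527-86705557, - strand): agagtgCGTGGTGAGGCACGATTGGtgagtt
Creld2 (chr15:88819514-88819544, + strand): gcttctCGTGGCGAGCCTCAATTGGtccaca
Dnajc3 (chr14:118937821-118937851, + strand): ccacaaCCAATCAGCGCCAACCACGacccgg
Calr (chr8:84847069-84847099, - strand): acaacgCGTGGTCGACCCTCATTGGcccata
Canx (chr11:50325794-50325824, - strand): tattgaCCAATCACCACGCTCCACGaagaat
Pdia6 (chr12:17266485-17266515, + strand): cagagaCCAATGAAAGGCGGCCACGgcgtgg
Syvn1 (chr19:6046526-6046556, + strand): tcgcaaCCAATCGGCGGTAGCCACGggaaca
Derl3 (chr10:75893236-75893266, + strand): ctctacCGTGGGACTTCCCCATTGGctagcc
All 10 matches began between 212 and 44 bases before the start, the farthest in Hsp90b1 and the nearest in Syvn1, and Hsp90b1 was the gene with 2 of them.

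The related element ERSE-II, searched as ATTGGNCCACG, matched in 2 of the 30 genes (6.67%) and in 0.0444% of all genes. In Herpud1, an ERAD adaptor, it lay 52 to 42 bases before the start, and in Dnajb11 it lay within the transcribed part.
Herpud1 (chr8:94386371-94386393, + strand): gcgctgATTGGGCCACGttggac
Either element was present in 11 of the 30 genes (36.7%) against 0.181% of all genes. The CCACG core alone, which is part of both elements, matched in 25 of the 30 genes (83.3%) and in 35.5% of all genes. The ACGTG core, which can overlap CCACG, matched in 13 (43.3%) and in 21.8%. A match describes the letters in the window and does not show binding. Only exact matches were counted, so a gene without a match can still hold a near-copy.

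The 250 bases before the start are printed for Creld2, which had the highest difference of the set, and for Hspa5, the best known target of the response. Capitals again mark the exact ERSE match, and near-copies stay in lower case.
Creld2 (chr15:88819396-88819645, + strand): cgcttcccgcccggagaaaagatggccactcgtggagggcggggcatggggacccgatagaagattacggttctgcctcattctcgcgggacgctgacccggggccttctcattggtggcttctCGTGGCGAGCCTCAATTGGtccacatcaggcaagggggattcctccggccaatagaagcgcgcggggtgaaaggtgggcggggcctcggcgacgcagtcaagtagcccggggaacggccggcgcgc
Hspa5 (chr2:34771840-34772089, + strand): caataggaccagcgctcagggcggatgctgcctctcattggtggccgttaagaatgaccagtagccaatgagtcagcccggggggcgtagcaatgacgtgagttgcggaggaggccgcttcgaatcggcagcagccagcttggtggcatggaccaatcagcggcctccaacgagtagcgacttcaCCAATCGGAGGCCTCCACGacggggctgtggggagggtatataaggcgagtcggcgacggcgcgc

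Liver expression of the set was then compared between source water and control. Several ER chaperones and their cofactors had higher signals in the source water livers, led by Creld2 (2.29-fold), Mlec (1.96-fold), Manf (1.82-fold) and Hspa5 (1.54-fold). Most ERAD factors, the translocon and the stress sensors differed little. None of the differences passed the test after adjustment. With limma and Benjamini-Hochberg adjustment over all 22626 probe sets, 0 of the 35 genes had an adjusted p under 0.05, where 4 of 12393 genes (0.0323%) did, and the lowest adjusted p in the set was 0.102, that of Mlec. At an unadjusted limma p under 0.05, 8 of the 35 genes were higher, against 4.16% of all genes, and 0 were lower, against 2.6% of all genes. The set was brighter than most genes, with 34 of the 35 above the median level of all probe sets. In a limma fit limited to probe sets above that level, 6.13% of 7147 genes were higher and 3.5% lower at such a p.

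The direction was mostly upward. In 29 of the 35 genes the mean was higher in source water, against 49.5% of all genes. The median difference over the 35 genes was 0.09, beside -0.00 over all genes. All 3 source water arrays lay above all 3 control arrays in 9 of the 35 genes, against 6.51% of all genes, and below them in 0, against 5.03%. Among genes above the median level of all probe sets, the share above was 9.07%. Over all 77 probe sets, 55 were higher in source water, against 47.4% of all probe sets. An unadjusted limma p under 0.05 was found for 11 of the 77, all of them higher, against 3.43% of all probe sets higher and 2.59% lower. These counts describe genes that were listed with earlier results of these data known, and they are not a test of the set.

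**Figure D1:**
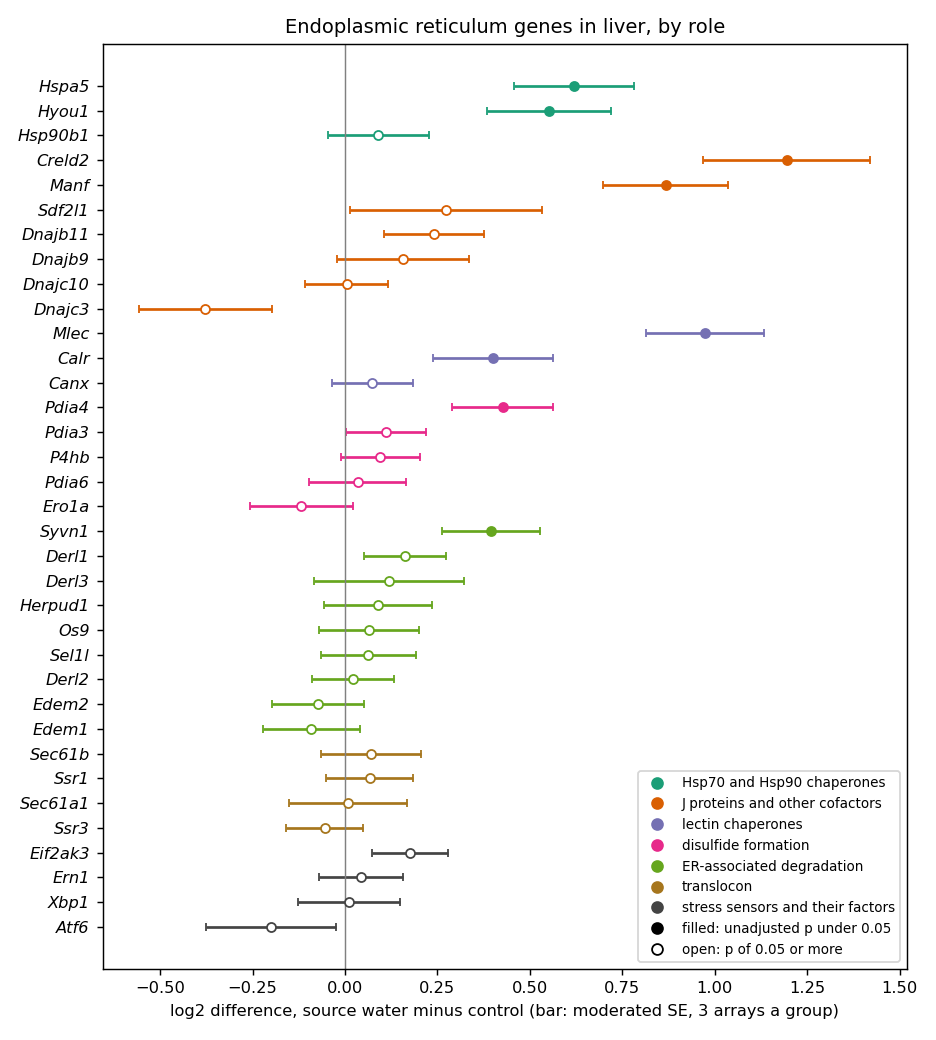
Log2 difference (source water minus control, x axis) of the 35 genes, 1 row per gene, coloured by role, with bars for the moderated standard error (3 arrays per group). Filled points have an unadjusted limma p under 0.05 and all 8 of them lie to the right of 0, from 0.39 for Syvn1 to 1.19 for Creld2.

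By class, the 18 chaperones and folding enzymes had a median difference of 0.20, and 16 of them were higher in source water. The 9 ERAD genes had a median of 0.06 with 7 higher, the 4 translocon genes 0.04 with 3 higher, and the 4 sensors and their factors 0.03 with 3 higher. Of the 8 genes with an unadjusted p under 0.05, 7 were chaperones or folding enzymes and 1, Syvn1, was an ERAD gene. The difference between the classes was not tested.

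Among the Hsp70 and Hsp90 chaperones, Hspa5 encodes BiP, the ER Hsp70 that binds unfolded chains and also holds the sensors inactive. Its control signals were 12.33, 11.87 and 12.18 in replicates 1 to 3, and its source water signals were 12.50, 12.80 and 12.94. The groups did not overlap, although source water replicate 1 lay only 0.17 above the highest control. The difference was 0.62 ± 0.16 (SE, n = 3 per group; limma adjusted p = 0.409). The other probe set of Hspa5 differed by 0.71.

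Hyou1 encodes a large Hsp70-like protein that exchanges nucleotide on BiP. Its signals were 8.72, 8.57 and 8.58 in control and 8.79, 9.36 and 9.38 in source water. Source water replicate 1 was close to the controls, and the other source water arrays stood well above them. The difference was 0.55 ± 0.17 (limma adjusted p = 0.538). All 3 probe sets of Hyou1 were higher, but the others, at lower signal, differed by 0.32 and 0.13 with no unadjusted p under 0.05.

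Hsp90b1 encodes GRP94, the Hsp90 of the ER. Its promoter held a pair of ERSE matches. Its signals overlapped, at 11.86, 11.73 and 11.89 in control and 11.80, 11.77 and 12.18 in source water. It differed by 0.09 ± 0.14 (limma adjusted p = 0.999), with a 95% interval of -0.22 to 0.40, and its other probe set differed by -0.19.

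Among the cofactors of these chaperones, Creld2 encodes a stress-induced luminal protein of the disulfide-handling kind. It measured 8.40, 7.91 and 8.17 in control and 8.84, 9.56 and 9.66 in source water. Every source water array exceeded every control by at least 0.44, the lowest again being replicate 1. The difference was 1.19 ± 0.23 (limma adjusted p = 0.167).

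Manf encodes a small protein that binds BiP in the ER and can be secreted. It measured 10.46, 10.11 and 10.26 in control and 10.80, 11.31 and 11.31 in source water. The gap between the groups was 0.34, and the difference was 0.87 ± 0.17 (limma adjusted p = 0.179). Creld2 and Manf each had 1 probe set, so there was no other probe set to set beside them.

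The J proteins hand substrates to BiP. Dnajb11, the J protein that works with Sdf2l1, differed by 0.24 and Sdf2l1 by 0.27. The signals of Sdf2l1 were spread widely, from 7.90 to 8.51 in control and from 7.82 to 8.71 in source water. In both Dnajb11 and Sdf2l1, source water replicates 2 and 3 lay above all controls and replicate 1 did not. Dnajb9 differed by 0.16 and Dnajc10, a J protein with disulfide reductase activity, by 0.00. Dnajc3, a J protein also known as an inhibitor of the kinases PKR and PERK, had the lowest difference of the set, -0.38 ± 0.18 (limma adjusted p = 0.883). Its 5 probe sets disagreed, running from -0.38 to 0.12 with 2 of 5 higher. None of these 5 J proteins and partners had groups that did not overlap.

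The lectin chaperones bind the sugar chains of new glycoproteins. Mlec encodes malectin, which recognises glycans that still carry glucose. It measured 7.38, 6.997 and 7.05 in control and 7.94, 8.03 and 8.39 in source water. The gap between the groups, 0.56, was the widest in the set. The difference was 0.97 ± 0.16 (limma adjusted p = 0.102), from its single probe set, with a 95% interval of 0.61 to 1.34.

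Calr encodes calreticulin, the soluble lectin chaperone. Its signals were 11.97, 12.01 and 11.44 in control and 12.15, 12.17 and 12.30 in source water. The groups did not overlap, and control replicate 3 was the lowest array. The difference was 0.40 ± 0.16 (limma adjusted p = 0.767), and it was 0.22, no longer under the unadjusted threshold, without control replicate 3. All 3 probe sets of Calr had an unadjusted p under 0.05, with differences of 0.40 to 0.48. Canx encodes calnexin, the membrane-bound partner with the same sugar specificity. It differed by 0.07, with overlapping groups and an interval of -0.18 to 0.32.

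**Figure D2:**
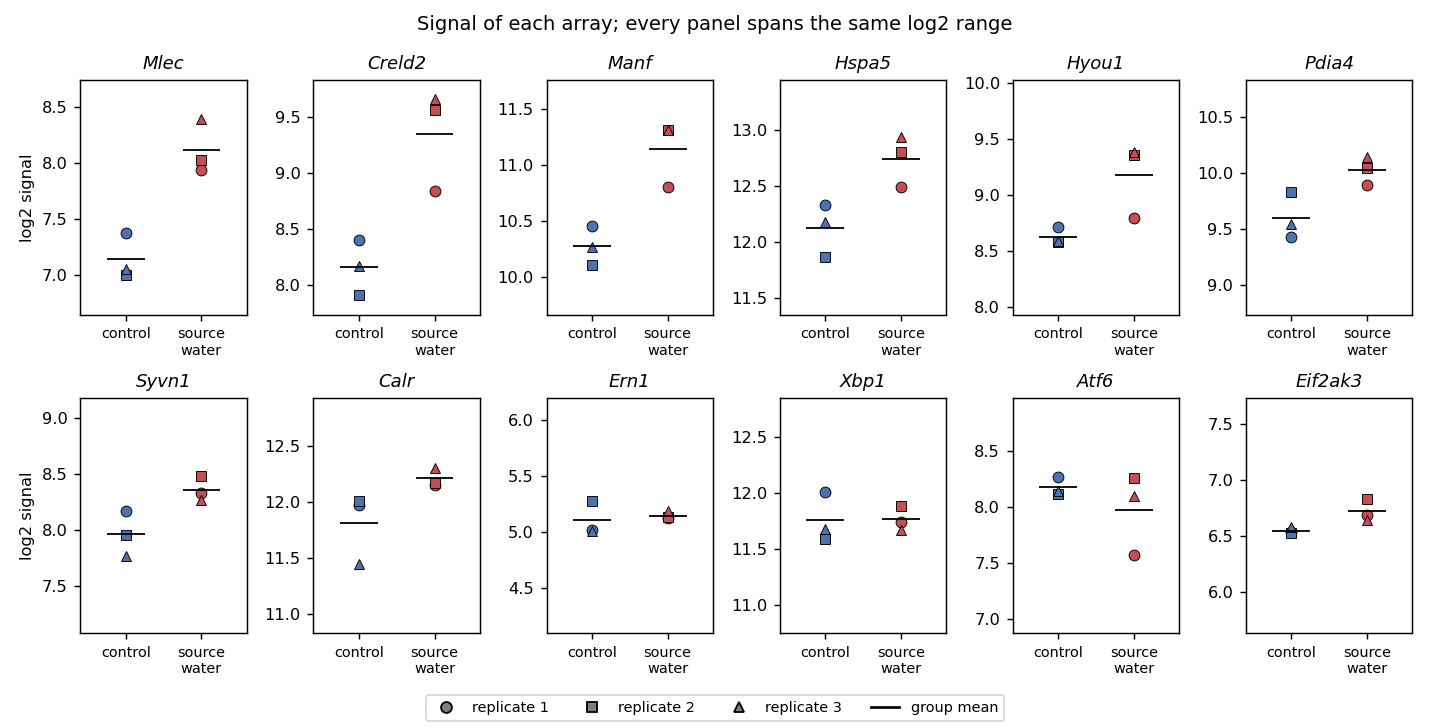
Log2 signal of each array (y axis; every panel spans the same log2 range) in control and source water, with 1 symbol shape per replicate number and a line at each group mean. The groups do not overlap in the first 8 genes or in Eif2ak3, and source water replicate 1 is the lowest source water array in 7 of the first 8 genes. The latter count was not made over all genes.

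Among the genes of disulfide formation, Pdia4, a disulfide isomerase also known as ERp72, was higher. It measured 9.42, 9.83 and 9.54 in control and 9.89, 10.04 and 10.14 in source water, and the groups were separated by 0.06. The difference was 0.43 ± 0.14 (limma adjusted p = 0.570). Its other probe set, near the low end of the signal scale, differed by -0.03, so the probe sets disagreed. The remaining isomerases overlapped between groups. P4hb, the most studied isomerase, differed by 0.10 ± 0.11 from control signals of 12.62, 12.71 and 12.50 to 12.65, 12.77 and 12.69. Pdia3, which folds glycoproteins together with the lectin chaperones, differed by 0.11 and Pdia6 by 0.03. Ero1a, the oxidase that recharges the isomerases, differed by -0.12, and its 3 probe sets ran from -0.20 to 0.08.

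ERAD genes were described in the order of the pathway. The lectins and mannosidase-like proteins that select substrates showed small differences, of -0.09 for Edem1, -0.07 for Edem2 and 0.06 for Os9. The ubiquitin ligase Syvn1, also known as HRD1, was the ERAD gene with the clearest separation. It measured 8.18, 7.96 and 7.77 in control and 8.33, 8.49 and 8.27 in source water. Every source water array lay above the controls by at least 0.09, and here replicate 3 was the lowest of its group. The difference was 0.39 ± 0.13 (limma adjusted p = 0.627).

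Sel1l, the membrane partner of the Syvn1 ligase, differed by 0.06, with all 4 of its probe sets between 0.04 and 0.16. Herpud1, the adaptor whose promoter holds the ERSE-II match, differed by 0.09 and overlapped between groups, at 12.28, 12.33 and 11.99 in control and 12.15, 12.19 and 12.52 in source water. The derlins, proposed channel components for export to the cytosol, differed by 0.16 for Derl1, 0.02 for Derl2 and 0.12 for Derl3. Derl3 is abundant in secretory cells such as plasma cells and pancreatic acinar cells. Its signals overlapped fully, from 5.98 to 6.62 in control and from 6.04 to 6.61 in source water. All 4 probe sets of Derl1 were higher, by 0.07 to 0.21.

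The translocon genes, which bring new chains into the ER, had the narrowest range by their probe sets of highest mean, from -0.06 to 0.07. Sec61a1, the pore subunit, differed by 0.01 and its 6 probe sets by -0.03 to 0.22, while the pore subunit Sec61b differed by 0.07. The translocon-associated subunits Ssr1 and Ssr3 differed by 0.07 and -0.06. In all 4 genes the groups overlapped in the probe set of highest mean. All 3 probe sets of Ssr1 were higher, by 0.02 to 0.30, and in the dimmest, which differed by 0.30, the groups did not overlap.

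The sensors and their factors gave no group difference with an unadjusted p under 0.05. Ern1, whose protein splices Xbp1 mRNA, measured 5.02, 5.28 and 5.01 in control and 5.13, 5.13 and 5.19 in source water. It lay below the median level of all probe sets and differed by 0.04 ± 0.11, with a 95% interval of -0.22 to 0.30. The 3 probe sets of Ern1 disagreed, running from -0.15 to 0.04. Xbp1 measured 12.01, 11.59 and 11.68 in control and 11.75, 11.89 and 11.67 in source water, a difference of 0.01 ± 0.14 with an interval of -0.30 to 0.33. Its 4 probe sets lay between -0.06 and 0.06, and the splicing of its mRNA was not analysed here.

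Atf6 measured 8.27, 8.11 and 8.14 in control and 7.57, 8.26 and 8.10 in source water. Its difference of -0.20 ± 0.18, with an interval of -0.60 to 0.21, rested on source water replicate 1, without which it was 0.0015. Eif2ak3 measured 6.53, 6.53 and 6.58 in control and 6.69, 6.83 and 6.65 in source water, and was the sensor whose groups did not overlap. It differed by 0.18 ± 0.10, with an interval of -0.06 to 0.41, and its 3 probe sets disagreed, running from -0.12 to 0.25. The limma adjusted p-values of the 4 genes were 0.97 to 0.999.

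**Figure D3:**
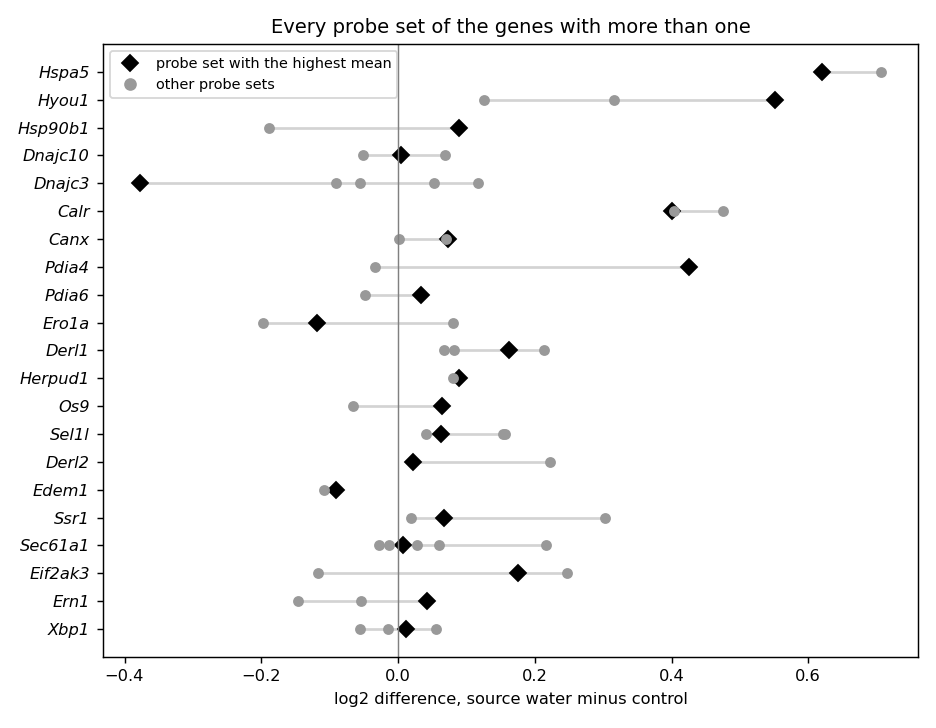
Log2 difference (source water minus control, x axis) of every probe set of the 21 genes with more than 1, with a diamond for the probe set of highest mean and circles for the others. All probe sets of Hspa5, Hyou1 and Calr lie above 0, whereas those of Dnajc3, Pdia4 and Eif2ak3 lie on both sides.

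The source water pools were not alike. Mean deviations of the 18 chaperones and folding enzymes from each gene's mean over the 6 arrays were -0.07, -0.19 and -0.20 in control replicates 1 to 3. In source water they were -0.05, 0.23 and 0.30. Source water replicate 1 thus lay only just above the highest control, while the other source water pools were clearly higher. Over all genes the same means lay between -0.01 and 0.01. Source water replicate 1 was the lowest source water array in 26 of the 35 genes, a count not made over all genes. It was the lowest of all 6 arrays in 9 of the 35 genes, against 12.6% of all genes. Source water replicate 3 was the highest of all 6 arrays in 15 of the 35 genes and replicate 2 in 10, whereas over all genes these arrays were highest in 19.1% and 15.7%. When each array was left out in turn, the groups did not overlap, higher, in 9 to 16 of the 35 genes. The 16 came without source water replicate 1, against 10.7% of all genes under the same omission. That array was low in these same genes, so a rise was likely beforehand and is no test. The number with an unadjusted limma p under 0.05 ranged from 6 to 9 when single arrays were left out.

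**Figure D4:**
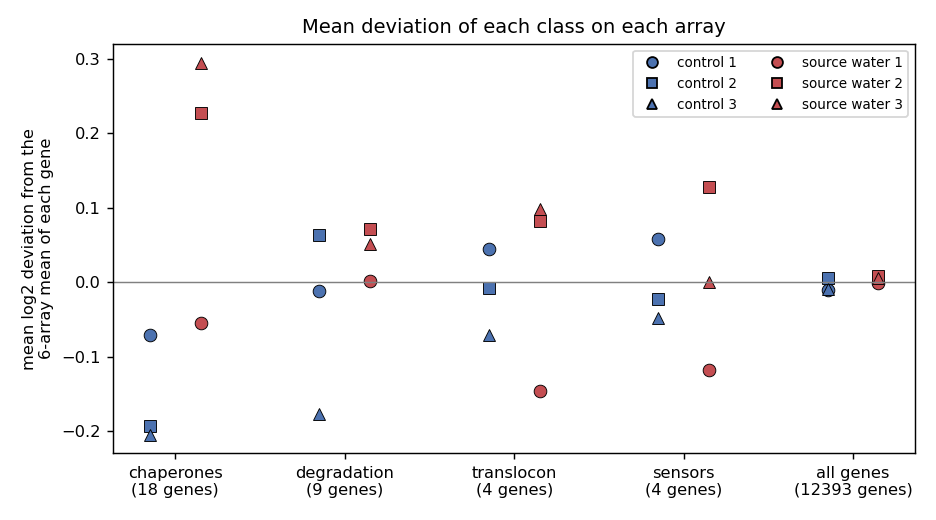
Mean log2 deviation of each class of genes from the 6-array mean of each gene (y axis), 1 point per array, blue for control and red for source water, with all 12393 genes at the right. The chaperones reach 0.23 and 0.30 in source water replicates 2 and 3 and -0.05 in replicate 1, while degradation, translocon and sensor genes overlap between groups.

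Some technical and cell type measures also differed with the groups. The bacterial dap and thr control RNAs had 3' minus 5' log2 signals of 1.41 ± 0.22 and 2.78 ± 0.22 in control and 2.01 ± 0.16 and 3.38 ± 0.11 in source water (SD, n = 3). The bacterial lys and phe control RNAs had -0.49 ± 0.09 and 2.15 ± 0.05 in control and -0.48 ± 0.05 and 2.13 ± 0.19 in source water. The same measure of mouse beta-actin was 1.34 in both groups. Of 8 stellate cell markers, 1 was higher and 1 lower at an unadjusted limma p under 0.05. Their mean deviation lay between -0.15 and -0.04 in control and between 0.04 and 0.18 in source water. Col3a1, a collagen gene, differed by 1.33 and Lrat, which defines quiescent stellate cells, by -0.27. Lrat lay below the median level of all probe sets, at means of 4.32 in control and 4.05 in source water. The other stellate markers had no such p. Reln differed by 0.32, Pdgfrb by 0.25, Dcn by 0.17, Acta2 by 0.07, Col1a1 by -0.04 and Des by -0.06. The 8 Kupffer cell markers overlapped (-0.40 to 0.45 in control, -0.17 to 0.25 in source water), as did the 6 B and plasma cell markers (-0.09 to 0.16 and -0.16 to 0.09). Of these 6, only Jchain of plasma cells lay above the median level of all probe sets. Jchain measured 7.09, 7.08 and 6.89 in control replicates 1 to 3 and 5.69, 7.29 and 7.23 in source water replicates 1 to 3. The 6 pancreatic acinar markers (-0.08 to 0.24 and -0.16 to 0.03), the 7 endothelial markers (-0.39 to 0.18 and -0.13 to 0.24) and the 4 erythroid markers (-0.02 to 0.19 and -0.12 to -0.01) overlapped as well. Single markers of these lists had an unadjusted limma p under 0.05. Endothelial Stab2 differed by 0.39, erythroid Klf1 by -0.61 and acinar Cela2a by -0.36, each with groups that did not overlap, and Cd79b of B cells differed by 0.33. None of the bile duct, T and NK cell or neutrophil markers measured had such a p. Many markers were dim. Above the median level of all probe sets lay 0 of 5 bile duct, 1 of 7 T and NK cell, 2 of 6 neutrophil and 1 of 6 acinar markers. The part of these measures in the chaperone differences was not tested.

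The differences were then set beside the promoter elements, with no test between the groups of genes. Of the 9 genes with an ERSE match, 8 were higher in source water and 4 had an unadjusted p under 0.05 (Creld2, Hspa5, Calr and Syvn1), with a median difference of 0.12 and a range from -0.38 for Dnajc3 to 1.19 for Creld2. Of the 19 genes with neither element in the window, 15 were higher and 2 had an unadjusted p under 0.05, Mlec and Pdia4, with a median of 0.06. Over all genes, 49.5% were higher, and 4.16% were higher at such a p. Manf and Hyou1, which also had such a p, had no promoter entry and are in neither count. The matches of Hsp90b1, Canx, Pdia6 and Derl3 printed above belong to genes that differed by 0.03 to 0.12.

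**Figure D5:**
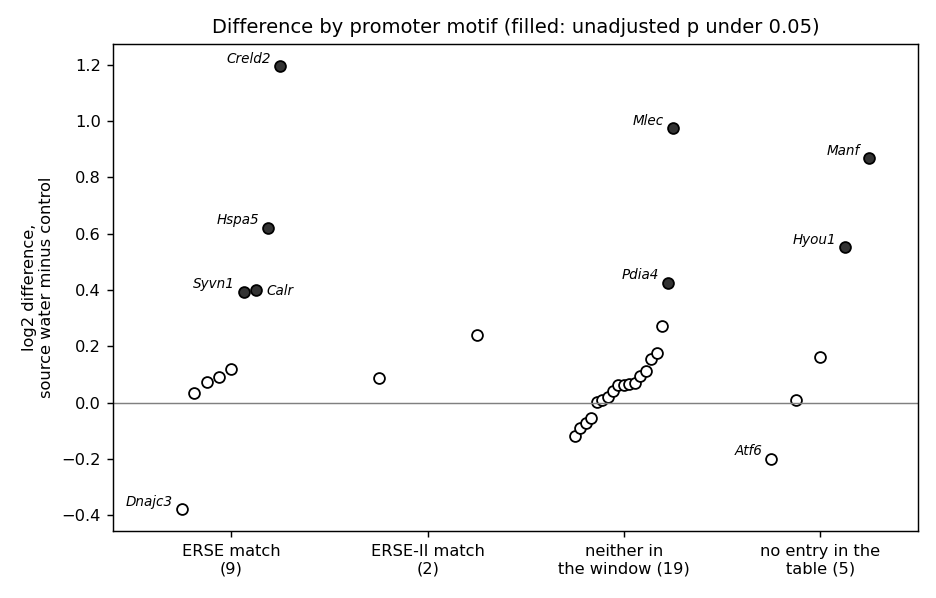
Log2 difference (source water minus control, y axis) of the 35 genes by whether the promoter window holds an ERSE, an ERSE-II or neither, or has no entry in the promoter table, 1 point per gene. Filled points have an unadjusted limma p under 0.05, and they occur in the ERSE column (4 genes), in the column with neither element (2) and in the column with no entry (2). Over all genes, 4.16% had such a p and were higher.

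Other genes of the same pathways were taken from lists written from textbook knowledge. Over all genes, 4.16% were higher and 2.6% lower at an unadjusted limma p under 0.05. Of 25 further ER folding genes, 3 were higher at that threshold and 0 lower. The 3 were Ero1b, a second oxidase of the isomerases (0.50 ± 0.16), Mogs, the glucosidase that trims the first glucose from glycans (0.34 ± 0.12), and Fkbp11 (0.28 ± 0.12). All of their source water arrays lay above the controls, but the 3 probe sets of Ero1b ran from -0.03 to 0.50 and those of Fkbp11 from -0.07 to 0.28. Of 27 translocation and glycosylation genes, 3 were higher and 0 lower. Stt3b, a catalytic subunit of the oligosaccharyltransferase, differed by 0.45 ± 0.11, Tusc3, another subunit, by 0.37 ± 0.10, and Srprb, of the signal recognition particle receptor, by 0.33 ± 0.11. Of 23 further ERAD genes, 0 were higher and 0 lower at that threshold, and their median difference was 0.01. In so few genes, 0 is not clearly apart from the shares over all genes, and the lists were not tested against each other. The limma adjusted p-values over these 75 genes were 0.378 or more.

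Of 24 genes of the ATF4 arm, which PERK controls, 5 were higher and 2 lower at an unadjusted limma p under 0.05. Over all genes, the shares were 4.16% higher and 2.6% lower. Trib3, a pseudokinase, differed by 1.22 ± 0.31, Atf5, a transcription factor, by 1.10 ± 0.30, and Ppp1r15b, a phosphatase subunit that reverses PERK signalling, by -0.40 ± 0.10. Source water replicate 1 was not the lowest source water array for Trib3 or Atf5, at 8.29 beside 7.66 and 8.59 and at 11.85 beside 11.04 and 11.55. Of 13 other signalling genes, Atf6b, a relative of Atf6, was higher, by 0.45 ± 0.13, with groups that did not overlap. The lowest limma adjusted p over these 37 genes was 0.373.

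In the authors' deposited table, the probe sets of the same 8 genes had a p-value under 0.05 and a positive fold change, against 4.62% of genes in that table. The p-values there were 0.00036 for Mlec, 0.00198 for Creld2, 0.00255 for Manf and 0.00574 for Pdia4, and the fold changes in the authors' deposited table were 1.96, 2.29, 1.82 and 1.34. The authors' deposited table gave 0 of the 35 genes as lower with a p-value under 0.05, against 3.07% of genes.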

How the data were processed

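Per the file headers and the submitters' processing notes, which name RMA and Partek without versions, each array has 1 deposited column, which holds a log2 signal for every probe set. For every probe set the authors also deposited log2 group means, a ratio, its p-value and a fold change written as a score, negative where the ratio is under 1. Their test is not given in the sources used here. Of 22690 probe sets, 64 controls were left out. Platform symbols were looked up by Entrez identifier in a table of GRCm38.p6 (0 changed), and 20380 probe sets had 1 symbol, 691 several and 1555 none. A gene was represented by its probe set of highest mean. Groups of 3 arrays were compared with limma 3.58.1 in R 4.3.3 (lmFit, eBayes, no covariate), with Benjamini-Hochberg adjustment over 22626 probe sets. The fit was checked on simulated data. No low-value filter was used. Every gene of the set is named. All arrays are given for genes of the set with an unadjusted p under 0.05, the sensors, Hspa5, Hsp90b1, Calr and P4hb. From each other list, up to 3 genes of smallest p under 0.05 are named. Probe sets are said to disagree where they differ in sign or by over 0.5 from the representative one. Those of Hsp90b1, Dnajc3, Dnajc10, Pdia4, Pdia6, Ero1a, Os9, Sec61a1, Ern1, Xbp1 and Eif2ak3 disagreed. The members and lists were chosen with earlier results of these data known. Replicate numbers were not taken as pairs, because they are not stated to pair the pools. Deviations from the group means correlated over probe sets at -0.07, 0.28 and 0.17 between same-numbered arrays. Between arrays of unlike number these correlations ran from -0.49 to 0.43. Deviations within a group cancel out, so these values do not settle pairing. The 6 arrays limit the precision. The 14 alternatives are a replicate block, 2 normalizations, limma-trend, 2 filters that drop dim probe sets, averaging all probe sets of a gene, a statistic without moderation, and the omission of each array in turn.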

Additional observations from a re-analysis of the deposited data

How the results depend on the processing

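All 14 alternatives were planned. None of the 35 genes passed adjustment in the main fit, and 0 did so in any run without 1 array. A repeated quantile normalization called 1, Mlec (adjusted p 0.0497, where its other alternatives gave up to 0.644), and gave 1 gene lower at an unadjusted p under 0.05, against 0. Mlec, Creld2, Manf, Hspa5 and Hyou1 had an unadjusted p under 0.05 in all 14 alternatives, Pdia4 and Syvn1 in 12 and Calr in 9. Calr lost it without control replicate 3 (p 0.114), without source water replicate 1 (0.0644), 2 (0.0659) or 3 (0.102) and without moderation of the variance (0.101). Pdia4 lost it without control replicate 1 (0.0528) and as the mean of its probe sets (difference 0.20, p 0.193), and Syvn1 without control replicate 3 (0.0684) or source water replicate 2 (0.0632). Eif2ak3 gained it without moderation (0.0405). Under the replicate block, the set had 0 genes past adjustment (lowest adjusted p 0.130), while 30 of all genes were called against 4. Leaving out 1 array gave 6 to 9 genes higher and 0 to 1 lower at an unadjusted p under 0.05 (the 1 without control replicate 2), 9 to 16 with groups not overlapping, higher (16 without source water replicate 1; 6 when all probe sets of a gene were averaged), and 12 to 15 other pathway genes, against 14. Medians without 1 array were 0.05 to 0.14 for the set, 0.13 to 0.27 for chaperones, -0.017 to 0.15 for ERAD (below 0 without control replicate 3), -0.019 to 0.12 for the translocon (below 0 without control replicate 3 or source water replicate 2 or 3) and -0.016 to 0.069 for the sensors (below 0 without control replicate 3). Averaging all probe sets of a gene turned the sensor median to -0.026, Ern1 to -0.052, Hsp90b1 to -0.049 and Xbp1 to -0.00078. Without 1 array, Xbp1 ran from -0.074 to 0.14, Hsp90b1 from -0.041 to 0.16, Ern1 from -0.0041 to 0.13 and Atf6 from -0.34 to 0.0015. The cause of these changes was not tested. Filters on dim probe sets left 34 of the 35 genes, without Ern1. The median of all genes lay between -0.01 and 0.02 in all alternatives, and probe sets near the floor understate differences.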

Other observations

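Outside the listed set, 28 genes of the promoter table held the same ERSE in their window, and 9 of them were measured on the array. Of these 9, 5 were higher in source water and 1, Ero1b, had an unadjusted limma p under 0.05 (difference 0.50, adjusted p 0.561), while 0 were lower at that threshold. Over all genes, 49.5% were higher, and 4.16% were higher at that threshold. The median difference of these 9 genes was 0.03, beside 0.12 for the 9 listed genes with the element. Acacb, a mitochondrial acetyl-CoA carboxylase, differed by 0.03, and Alg12, a mannosyltransferase of glycan assembly in the ER, by -0.04. Acnat2, an acyltransferase of the peroxisome, differed by 0.34 (adjusted p 0.968). These genes were looked up after the members' matches had been seen.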
